A study of Mus musculus with 12 samples.

Results

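Cish and the suppressors of cytokine signalling Socs1 to Socs7 form a family of 8 genes, and all 8 were measured in mouse brown adipose tissue by expression array. They were chosen by gene symbol, as probe sets (groups of probes that read one transcript) to which the platform annotation gives only that symbol. They stand among 22180 genes read by 23521 such probe sets. Cish, Socs2 and Socs3 have 2 probe sets each, 11 in all, and the one with the higher mean over the 12 arrays stood for the gene, a choice that uses no group label. The chosen probe sets were 17521300 for Cish, 17328104 for Socs1, 17274184 for Socs2, 17272619 for Socs3, 17299316 for Socs4, 17340239 for Socs5, 17355873 for Socs6 and 17255775 for Socs7.

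The 12 arrays each read the tissue of 1 mouse, with 3 mice in each of 4 groups: adipocyte-specific Sel1L knockouts at 4 °C, controls at 4 °C, knockouts at room temperature and controls at room temperature. All mice were on the C57BL/6J background and were fasted for 5 h at the stated temperature. The knockouts came from crossing mice with a floxed Sel1L allele to mice whose Cre recombinase is driven by the Adiponectin promoter, which is active in adipocytes, so other cells of the tissue keep the gene. The controls, labelled wildtype, were Sel1L f/f littermates and carry the floxed allele too. Age and sex are not given in the labels. The sample labels name snap-frozen tissue, although the series' design speaks of isolated adipocytes. Sel1L works with the ubiquitin ligase Hrd1 to clear misfolded proteins out of the endoplasmic reticulum, and the design asks what its loss and cold each change.

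SOCS proteins are feedback inhibitors of cytokine and hormone signalling. A ligand such as growth hormone, leptin, interleukin-6 or an interferon activates receptor-bound Janus kinases (JAKs), which phosphorylate STAT transcription factors. The STATs then switch on SOCS genes among others, and the SOCS proteins bind the phosphorylated receptor or kinase through an SH2 domain and recruit a ubiquitin ligase through the SOCS box. CIS (the product of Cish) and SOCS2 are best known for STAT5 signals such as growth hormone, SOCS1 for interferon and SOCS3 for STAT3 signals through the gp130 receptor. SOCS1 and SOCS3 are also known to dampen insulin signalling in fat, SOCS6 and SOCS7 bind insulin pathway proteins, and SOCS4 and SOCS5 are linked to the EGF receptor.

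Values are log2 expression after RMA normalization, so a difference of 1 is a 2-fold difference. The array medians lay between 2.03 and 2.09, and a reading near them cannot be told from background here. Differences were tested with limma over all 23521 named probe sets, and "rose" and "fell" mean an adjusted p under 0.05. Sel1l, the deleted gene, read 6.18, 6.09 and 5.92 in knockouts at room temperature, against 7.37, 6.96 and 7.23 in controls. At 4 °C it read 6.90, 6.73 and 6.54 in the arrays labelled knockout, against 6.99, 6.69 and 7.04 in controls. The groups were apart at room temperature and overlapped at 4 °C, so the Sel1l reading did not check the knockout label there, and knockout at 4 °C means the label (difference -0.19 ± 0.14, adjusted p = 0.605, against -1.12 ± 0.14, adjusted p = 0.00114, at room temperature). With cold Sel1l rose in knockouts by 0.66 ± 0.14 (adjusted p = 0.012), with groups apart, a call lost under 2 of 22 alternatives. In controls it differed by -0.28 ± 0.14 (adjusted p = 0.28). The cold comparison in knockouts thus also differs in the reading of the deleted gene. Brown adipocyte markers were present on all arrays, with a mean of 12 genes between 9.28 and 10.08 on the log2 scale, higher at 4 °C in both genotypes as given with the other markers. The markers of skeletal muscle, which lies next to this fat, varied widely, with a mean of 16 genes from 2.62 to 6.69 in knockouts at 4 °C, 4.94 to 7.96 in controls at 4 °C, 3.04 to 6.40 in knockouts at room temperature and 6.45 to 7.30 in controls at room temperature. Control replicate 3 at room temperature has a source name that says 4 °C, against its title and its temperature field, and was kept at room temperature. With it moved to 4 °C, limma called 0 of the 23521 probe sets for cold in controls. With it left out, 2139 were called, with Socs2 (4.09, adjusted p = 0.00083) and Socs3 (0.93, adjusted p = 0.0114) among them and Cish not (-0.80, adjusted p = 0.152).

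With cold, Socs2 and Socs3 rose and Cish fell in both genotypes. The call of Cish in controls was lost under 16 of 22 alternatives and on its other probe set, and that of Socs3 on its other probe set in both genotypes. In knockouts 3 of 8 members were called (37.5%), against 9.03% of all named probe sets, with 2 members up (4.32% of all) and 1 down (4.7% of all). In controls 3 of 8 were called as well, against 11.1% of all, with 2 up (4.85% of all) and 1 down (6.23% of all). The members were chosen with results of these data known, so these shares are descriptions. Over all 8 members the median difference was -0.09 in knockouts and 0.33 in controls, against -0.01 for all probe sets in each.

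**Figure D1:**
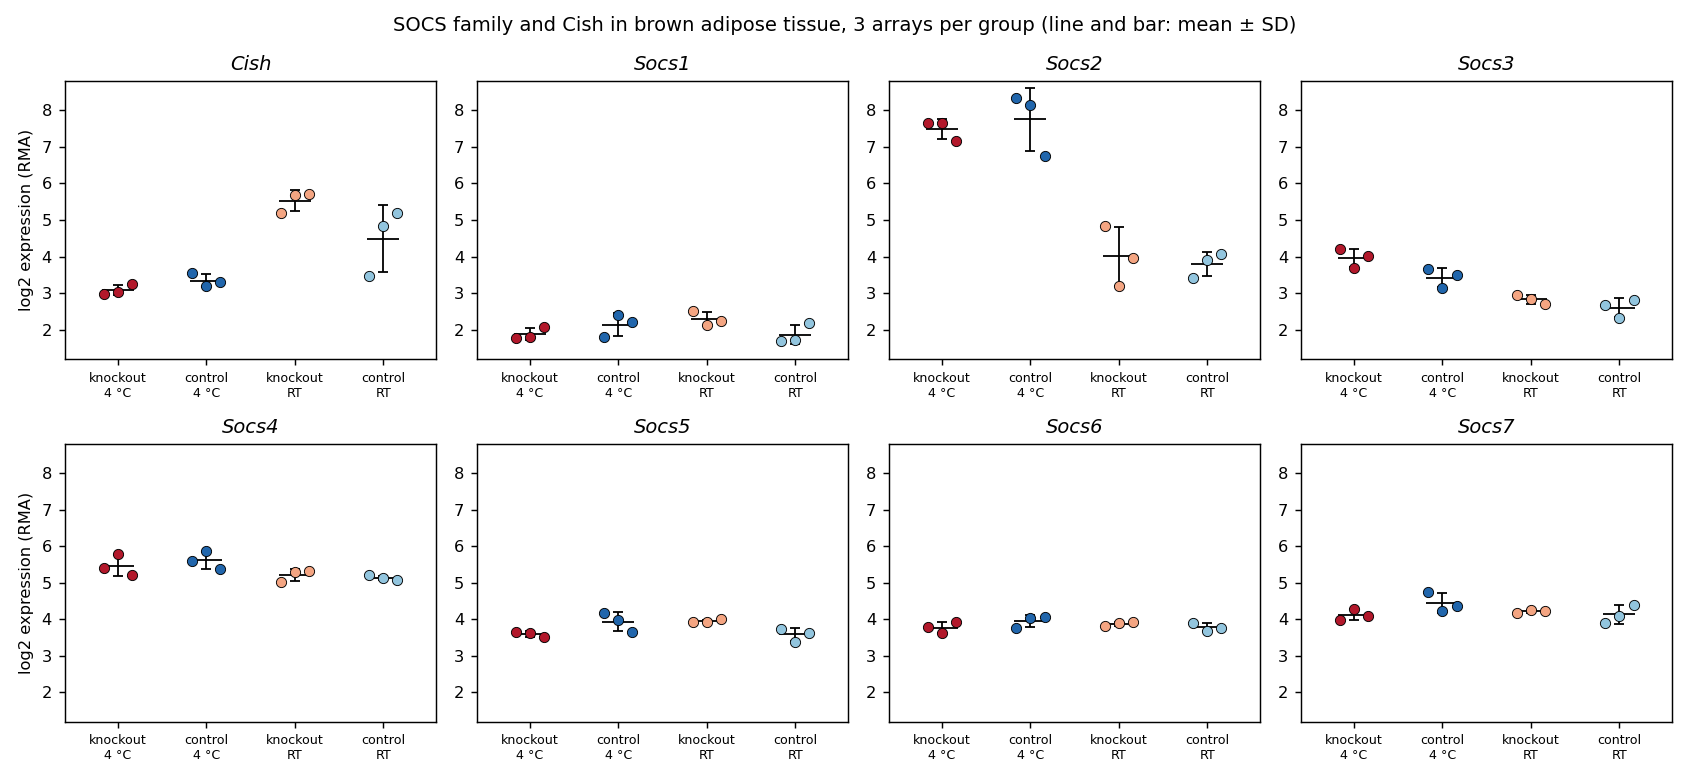
Log2 expression (RMA) of the 8 genes in each of the 12 arrays, 3 points per group, with a horizontal line at the mean and a bar of 1 SD; RT is room temperature. At 4 °C Socs2 and Socs3 lie higher and Cish lower, apart from the control at room temperature with a Cish reading of 3.46, and Socs2 reads 6.76 to 8.34 in every array, against 3.21 to 4.84 at room temperature.

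Socs2, which restrains growth hormone signalling, had the largest change of the family in each genotype. It read 7.65, 7.64 and 7.17 in knockouts at 4 °C, against 4.84, 3.21 and 3.97 in knockouts at room temperature. In controls it read 8.34, 8.16 and 6.76 at 4 °C, against 3.42, 3.90 and 4.07 at room temperature. All 6 arrays at 4 °C lay above all 6 at room temperature, and the lowest reading in the cold was control replicate 3. Socs2 rose 11.2-fold in knockouts (log2 3.48 ± 0.42 SE, n = 3 per group, adjusted p = 0.000426), with a 95% interval of 5.92-fold to 21.1-fold. It rose 15.5-fold in controls (3.96 ± 0.42, adjusted p = 0.000198), with an interval of 8.23-fold to 29.3-fold.

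The dimmer Socs2 probe set, 17244486, gave the same calls with smaller sizes. It read 5.25, 4.60 and 4.30 in knockouts at 4 °C, against 2.56, 2.16 and 2.62 at room temperature. It rose 4.83-fold in knockouts (2.27 ± 0.24, adjusted p = 0.000176) and 5.25-fold in controls (2.39 ± 0.24, adjusted p = 0.000136). Readings near 2 at room temperature are close to background, where RMA compresses differences, so the size of the rise is less certain than its direction.

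Socs3, the feedback inhibitor of gp130 and leptin receptor signals, was dimmer and rose less. It read 4.19, 3.70 and 4.01 in knockouts at 4 °C, against 2.95, 2.84 and 2.71 in knockouts at room temperature. In controls it read 3.65, 3.13 and 3.50 at 4 °C, against 2.67, 2.32 and 2.82 at room temperature. The groups did not overlap in either genotype. The rise was 2.19-fold in knockouts (1.13 ± 0.17, adjusted p = 0.00156) and 1.77-fold in controls (0.82 ± 0.17, adjusted p = 0.0088). The other Socs3 probe set, 17547600, read between 1.62 and 2.67 on all arrays, at or near background, and did not pass the test in knockouts (0.48 ± 0.20, adjusted p = 0.195) or in controls (0.18 ± 0.20, adjusted p = 0.682).

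Cish, whose product CIS is a feedback inhibitor of STAT5 signals, was the one member that fell in the cold. It read 2.99, 3.03 and 3.25 in knockouts at 4 °C, against 5.20, 5.68 and 5.70 in knockouts at room temperature. In controls it read 3.54, 3.19 and 3.30 at 4 °C, against 3.46, 4.83 and 5.19 at room temperature. The knockout groups were far apart, whereas control replicate 1 at room temperature sat among the arrays at 4 °C. Cish fell by 2.44 on the log2 scale in knockouts (SE 0.33, adjusted p = 0.000789), which is 5.42-fold lower. In controls it fell by 1.15 (SE 0.33, adjusted p = 0.0431), which is 2.22-fold lower.

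The fall of Cish in knockouts was called under all 22 alternatives tried on this probe set (adjusted p up to 0.0157). The fall in controls lost its call under 16 of 22, 10 of which left out a single array. Without control replicate 1 at room temperature it was -1.66 (adjusted p = 0.000801), and without control replicate 3 at room temperature, the array with the conflicting label, it was -0.80 (adjusted p = 0.152). The dimmer Cish probe set, 17530881, fell in knockouts (-1.62 ± 0.31, adjusted p = 0.00566) and was not called in controls (-0.81 ± 0.31, adjusted p = 0.124).

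**Figure D2:**
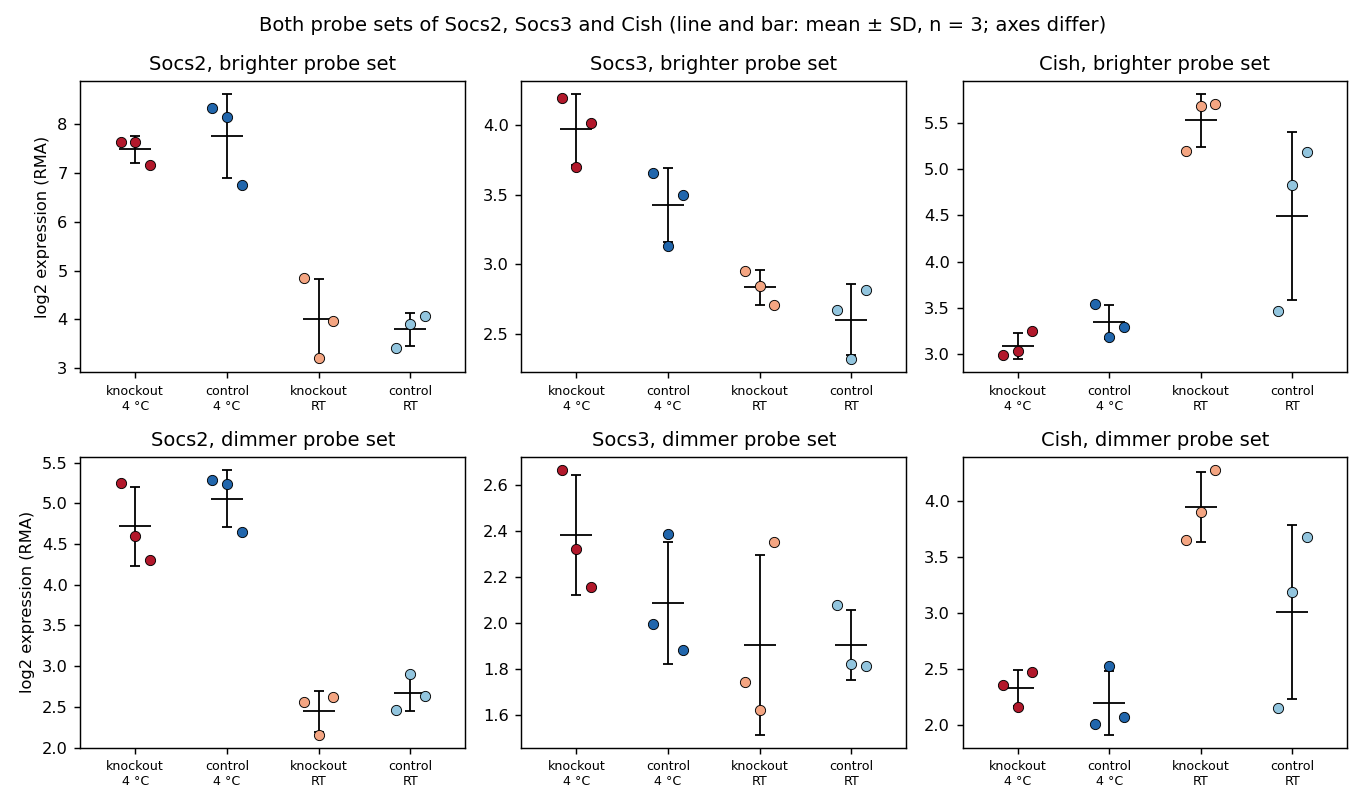
Log2 expression (RMA) of both probe sets of Socs2, Socs3 and Cish in each array, with a line at the mean and a bar of 1 SD (n = 3 per group); the y axes differ between panels, and RT is room temperature. Both Socs2 probe sets separate the temperatures, while the dimmer Socs3 probe set stays between 1.62 and 2.67.

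The promoters of Cish and Socs3 are shown because these genes changed in opposite directions and both are textbook STAT targets. The RefSeq promoter table (GRCm38.p6) held 4 of the 8 members, namely Cish, Socs1, Socs3 and Socs4. Each sequence runs 5′ to 3′ from 250 bases before the annotated start to 30 bases after it, with matches to the STAT motif TTCNNNGAA in capitals. Cish lies at chr9:107296409-107296688 on the plus strand and Socs3 at chr11:117969337-117969616 on the minus strand.
Cish: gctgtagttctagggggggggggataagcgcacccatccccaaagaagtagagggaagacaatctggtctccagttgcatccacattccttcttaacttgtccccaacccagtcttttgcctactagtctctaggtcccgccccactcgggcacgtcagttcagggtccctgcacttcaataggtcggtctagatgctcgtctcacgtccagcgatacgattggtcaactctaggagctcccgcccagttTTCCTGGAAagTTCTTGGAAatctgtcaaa
Socs3: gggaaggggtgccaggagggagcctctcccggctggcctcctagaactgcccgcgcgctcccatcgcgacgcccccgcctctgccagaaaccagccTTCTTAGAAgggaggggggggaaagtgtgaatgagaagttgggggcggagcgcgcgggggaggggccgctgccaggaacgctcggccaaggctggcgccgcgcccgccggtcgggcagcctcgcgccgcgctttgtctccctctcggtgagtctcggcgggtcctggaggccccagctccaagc

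The Cish window held 2 matches, TTCCTGGAA and TTCTTGGAA, which begin 1 and 12 bases into the annotated transcript. The Socs3 window held 1, TTCTTAGAA, beginning 154 bases before the start. The motif reads the same on both strands. Of all 32851 promoter windows of 280 bases, 7.83% held at least 1 match and 0.408% held at least 2. The Socs1 and Socs4 windows held none, and the cAMP motif TGACGTCA was in none of the 4 windows, against 1.74% of all. A match is a string of letters and not evidence of binding.

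The remaining 5 members did not pass the test for cold in either genotype, although the ranges of some groups were apart. Of all 8 members, 5 had groups that did not overlap in knockouts (Cish, Socs1, Socs2, Socs3 and Socs5) and 3 in controls (Socs2, Socs3 and Socs4), against 25.8% and 25.9% of all probe sets in these comparisons. Socs4 read 5.60, 5.86 and 5.37 in controls at 4 °C, against 5.20, 5.12 and 5.08 in controls at room temperature. Its difference was 0.48 ± 0.16 (adjusted p = 0.0824) in controls and 0.26 ± 0.16 (adjusted p = 0.424) in knockouts. Socs1 averaged 2.04 over all arrays, at the array median, and differed by -0.42 ± 0.18 in knockouts (adjusted p = 0.205) and 0.27 ± 0.18 in controls (adjusted p = 0.426).

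Socs5 differed in opposite directions in the 2 genotypes without passing the test in either. It read 3.66, 3.63 and 3.52 in knockouts at 4 °C, against 3.92, 3.93 and 4.00 in knockouts at room temperature. In controls it read 4.18, 3.97 and 3.66 at 4 °C, against 3.74, 3.39 and 3.64 at room temperature. The knockout groups were apart and the control groups overlapped. The differences were -0.35 ± 0.14 in knockouts (adjusted p = 0.154) and 0.35 ± 0.14 in controls (adjusted p = 0.136). Socs6 and Socs7 had cold differences of -0.10 ± 0.12 and -0.09 ± 0.15 in knockouts, against 0.17 ± 0.12 and 0.31 ± 0.15 in controls (adjusted p from 0.258 to 0.836). The 95% intervals of Socs6 reach 0.43 at most in size, so a change of 2-fold lies outside them.

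**Figure D3:**
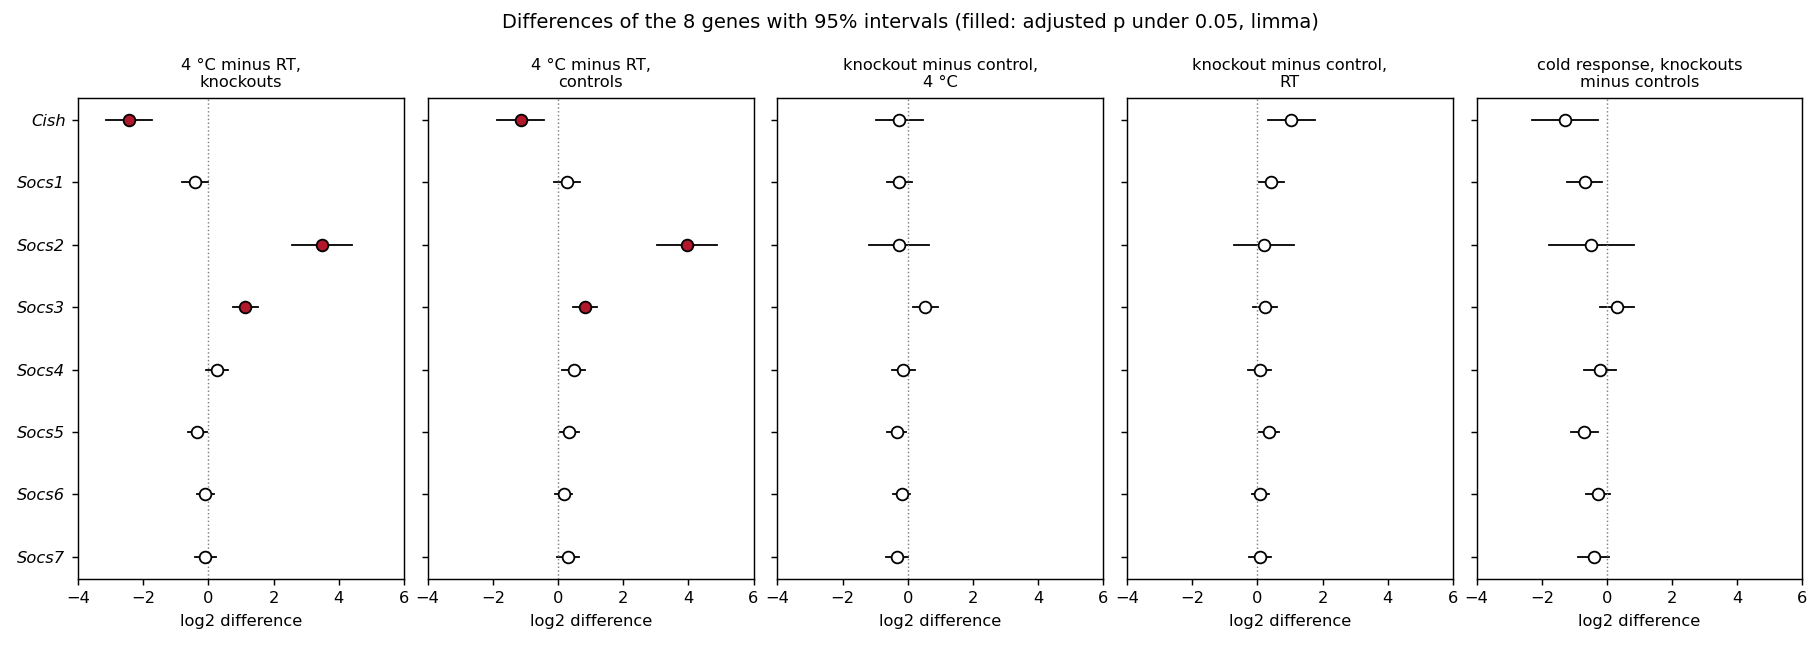
Log2 differences of the 8 genes in 5 comparisons, with 95% intervals; filled points passed an adjusted p of 0.05 (limma), and RT is room temperature. Socs2 and Socs3 lie right of 0 and Cish left of 0 in both cold comparisons, and no point is filled in the 3 panels of genotype and of the difference between cold responses.

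No member passed the test for genotype at room temperature, where 1.72% of all named probe sets did. Of all, 1.29% were higher and 0.429% lower in knockouts, and 3 of 8 members had an unadjusted p under 0.05, against 13% of all. Cish had the largest difference, 1.04 ± 0.33 (95% interval 0.32 to 1.76, adjusted p = 0.174). Its readings of 5.20, 5.68 and 5.70 in knockouts lay just above the 3.46, 4.83 and 5.19 of controls. Without control replicate 1, the lowest of them, the difference was 0.52 (adjusted p = 0.261), and without control replicate 3 it was 1.38 (adjusted p = 0.0608). On the dimmer Cish probe set the groups overlapped, with a difference of 0.94 ± 0.31 (adjusted p = 0.182). Socs1 differed by 0.43 ± 0.18 (adjusted p = 0.322) and Socs5 by 0.36 ± 0.14 (adjusted p = 0.26). The median over the members was 0.22, against -0.01 for all probe sets.

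No member passed for genotype at 4 °C either, where 5.8% of all did (3.61% higher and 2.19% lower), and 2 of 8 members had an unadjusted p under 0.05, against 16.9% of all. Socs3 came closest. It read 4.19, 3.70 and 4.01 in the arrays labelled knockout, against 3.65, 3.13 and 3.50 in controls, so that the groups were narrowly apart. The difference was 0.54 ± 0.17 (95% interval 0.17 to 0.92, adjusted p = 0.102), and with the replicate number as a block it passed (adjusted p = 0.0414). Its other probe set differed by 0.30 ± 0.20 (adjusted p = 0.538). Socs5 differed by -0.34 ± 0.14 (adjusted p = 0.214), also with groups apart. For Socs2 the interval ran from -1.18 to 0.65, which leaves room for a difference of more than 2-fold in one direction.

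The difference between the cold responses of the 2 genotypes was not called for any member, with 0.306% of all probe sets called (0.23% higher and 0.0765% lower) and 3 of 8 members at an unadjusted p under 0.05, against 9.77% of all. It was -1.29 ± 0.47 for Cish (95% interval -2.31 to -0.27, adjusted p = 0.367), -0.69 ± 0.25 for Socs1 (adjusted p = 0.369) and -0.70 ± 0.19 for Socs5 (95% interval -1.11 to -0.28, adjusted p = 0.182). On the dimmer Cish probe set it was -0.81 ± 0.43 (95% interval -1.75 to 0.13, adjusted p = 0.601). For Socs2 it was -0.48 ± 0.60 and for Socs3 0.31 ± 0.25 (adjusted p = 0.866 and 0.756). Their intervals, -1.77 to 0.82 and -0.22 to 0.84, do not show that the 2 genotypes respond alike. By group mean, Socs2 was lowest in controls at room temperature, then knockouts at room temperature, knockouts at 4 °C and controls at 4 °C, and only the middle pair of neighbours had ranges apart. Cish was lowest in knockouts at 4 °C, followed by controls at 4 °C, controls at room temperature and knockouts at room temperature, and only the last pair was apart.

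The values of Socs2, Socs3 and Cish were also compared from mouse to mouse. Over the 12 arrays Socs2 correlated with Socs3 at r = 0.82 and with Cish at r = -0.79, values set by the temperature groups. For deviations from the group means the same correlations were 0.02 and 0.09 (12 arrays, a description only).

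Markers of other cells were read beside these results, since in whole tissue fewer cells of a type and less RNA per cell cannot be told apart. The mean of 10 T and B cell markers was 2.09 to 2.21 in knockouts at 4 °C, 2.28 to 2.52 in controls at 4 °C, 2.35 to 2.59 in knockouts at room temperature and 2.27 to 2.31 in controls at room temperature. It was thus lower at 4 °C in knockouts, as Cish was, but not in controls. By limma 0 of 10 markers were called in any of the 5 comparisons, with at most 3 at an unadjusted p under 0.05. Of all probe sets, 0.306% to 11.1% were called in these comparisons and 9.77% to 23.1% had an unadjusted p under 0.05. Of these markers Cd3d, Ms4a1, Cd79a, Cd79b and Cd2 averaged 1.34 to 1.88, below the array medians. Cd3e, Cd3g, Cd4 and Cd8a averaged 2.16 to 2.83 and Ptprc 4.88, above them. The part of these cells in the Cish result was not tested. Of 12 macrophage markers, 2 rose and 0 fell with cold in each genotype, and their mean was 5.46 to 5.63 in knockouts at 4 °C, 5.12 to 5.92 in controls at 4 °C, 5.23 to 5.40 in knockouts at room temperature and 5.05 to 5.60 in controls at room temperature. Their part in the Socs3 result was not tested. The mean of the 12 brown adipocyte markers was 9.78 to 9.80 in knockouts at 4 °C, 10.01 to 10.08 in controls at 4 °C, 9.49 to 9.70 in knockouts at room temperature and 9.28 to 9.61 in controls at room temperature. This mean was thus higher at 4 °C in each genotype, with no overlap. The median difference of the 12 with cold was nevertheless -0.05 in knockouts and -0.10 in controls, so the markers did not rise as a set. Of the 12, 2 rose and 1 fell in knockouts, and 3 rose and 1 fell in controls. The part of this mean in the Socs2, Socs3 and Cish results was not tested. Endothelial markers had 2 up and 2 down of 10 in knockouts and 3 up and 2 down in controls. Beside these marker counts with cold, 4.32% of all probe sets rose and 4.7% fell in knockouts. In controls 4.85% of all rose and 6.23% fell. With the muscle marker mean as a covariate, Socs2, Socs3 and Cish kept their calls in knockouts, Socs2 and Socs3 kept theirs in controls, and Cish in controls did not (-1.15, adjusted p = 0.0619).

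Among the STAT genes, Stat5a and Stat5b fell with cold in both genotypes, and Stat3 rose in knockouts. The lists of pathway genes were written from general knowledge with earlier results known, and their counts are descriptions. Beside the list counts with cold below, 4.32% of all probe sets rose and 4.7% fell in knockouts. In controls 4.85% of all rose and 6.23% fell. Stat5a, a STAT that acts below growth hormone and prolactin receptors, read 5.04, 4.85 and 4.82 in knockouts at 4 °C, against 5.64, 6.17 and 5.50 at room temperature. In controls it read 4.37, 4.17 and 5.19 at 4 °C, against 6.22, 5.93 and 5.71 at room temperature. The groups did not overlap in either genotype. Stat5a fell by 0.87 in knockouts (SE 0.25, adjusted p = 0.0456) and by 1.37 in controls (SE 0.25, adjusted p = 0.0035). Its close relative Stat5b fell by 0.51 in knockouts (SE 0.15, adjusted p = 0.0484) and by 0.86 in controls (SE 0.15, adjusted p = 0.00275). The 2 calls in knockouts were each lost under 15 of 22 alternatives.

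Stat3, which carries gp130 and leptin signals, read 8.38, 8.53 and 8.35 in knockouts at 4 °C, against 7.83, 7.43 and 8.02 at room temperature. It rose by 0.66 ± 0.15 in knockouts (adjusted p = 0.0129). In controls the difference was 0.33 ± 0.15 and was not called (adjusted p = 0.187). At 4 °C Stat3 was also higher in the arrays labelled knockout than in controls, which read 7.78, 7.71 and 7.92 (0.62 ± 0.15, adjusted p = 0.0253), a call lost under 6 of 22 alternatives, 5 of them without 1 of the compared arrays. The interaction was not called (0.33 ± 0.21, adjusted p = 0.668). In knockouts Stat6, the STAT of interleukin-4, fell by 0.78 (SE 0.13, adjusted p = 0.00255) and Stat2, a STAT of interferon signals, by 1.09 (SE 0.29, adjusted p = 0.0365, lost under 9 of 22 alternatives). Of 6 measured STAT genes, 1 rose and 4 fell with cold in knockouts and 0 rose and 2 fell in controls, with medians of -0.65 and -0.17. None of 3 Janus kinases was called in any comparison by limma, with at most 1 at an unadjusted p under 0.05, and Jak2 differed by -0.05 ± 0.17 in knockouts and 0.01 ± 0.17 in controls.

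Lifr and Osmr, receptors of gp130 cytokines, rose with cold in both genotypes. Of 24 measured JAK-coupled receptors, 5 rose and 1 fell in knockouts, against 4 up and 3 down in controls, with medians of -0.09 and -0.05. Lifr, the receptor of leukemia inhibitory factor, rose by 1.24 ± 0.18 in knockouts and 1.14 ± 0.18 in controls (adjusted p = 0.00107 and 0.0016). Osmr, the oncostatin M receptor, rose by 0.91 ± 0.18 and 0.67 ± 0.18 (adjusted p = 0.00799 and 0.0342), and the interleukin-4 receptor Il4ra by 1.16 ± 0.19 and 1.30 ± 0.19 (adjusted p = 0.00259 and 0.00118). The call of Osmr in controls was lost under 9 of 22 alternatives. The interleukin-6 receptor Il6ra rose by 1.21 ± 0.21 in knockouts (adjusted p = 0.00307) and differed by 0.63 ± 0.21 in controls (adjusted p = 0.0732). Il6st, the signalling chain gp130 shared by Lifr, Osmr and Il6ra, differed by -0.22 ± 0.11 in knockouts and -0.19 ± 0.11 in controls (adjusted p = 0.315 and 0.375).

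The receptor of growth hormone, Ghr, differed by -0.45 ± 0.14 in knockouts (adjusted p = 0.0761) and fell by 0.54 in controls (SE 0.14, adjusted p = 0.031), a call lost under 9 of 22 alternatives. Il10rb, a shared chain of the interleukin-10 receptor family, fell by 1.30 in knockouts (SE 0.20, adjusted p = 0.00163) and by 0.97 in controls (SE 0.20, adjusted p = 0.00772). Of 21 measured ligands, 1 rose and 1 fell in knockouts and 0 rose and 2 fell in controls, with medians of -0.04 and 0.01. Il15, a cytokine that signals through STAT5, fell by 0.98 in knockouts and 1.32 in controls (SE 0.25 each, adjusted p = 0.0253 and 0.00425), the call in knockouts being lost under 6 of 22 alternatives. Il10, which rose by 0.36 in knockouts (SE 0.10, adjusted p = 0.0456, lost under 17 of 21), read below the array medians on every array. Csf2ra, the receptor of the growth factor GM-CSF, rose in controls (0.75 ± 0.17, adjusted p = 0.014) and differed by -0.01 ± 0.17 in knockouts (adjusted p = 0.991). Its interaction was not called (-0.75 ± 0.24, adjusted p = 0.285). The heart and fat cytokine Ctf1 fell in controls by 1.16 (SE 0.30, adjusted p = 0.0269), a call lost under 7 of 22 alternatives.

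**Figure D4:**
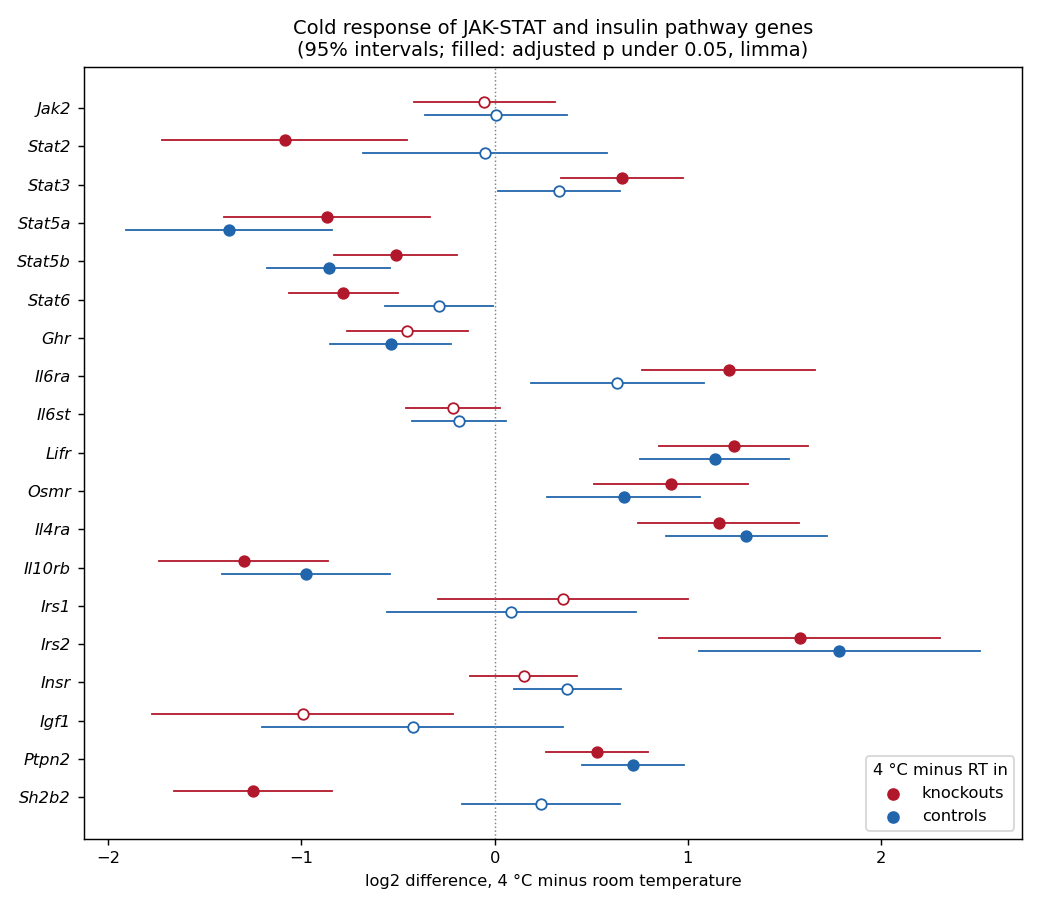
Log2 differences between 4 °C and room temperature, with 95% intervals, for 19 named genes of JAK-STAT and insulin signalling in knockouts (red, upper of each pair) and controls (blue, lower); filled points passed an adjusted p of 0.05 (limma). Lifr, Osmr, Il4ra, Irs2 and Ptpn2 lie right of 0 and Stat5a, Stat5b and Il10rb left of 0, filled in both genotypes.

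Of 19 measured STAT3 target and acute phase genes, 9 rose and 0 fell with cold in knockouts, and 8 rose and 0 fell in controls, with medians of 0.54 and 0.57. Il4ra and Osmr, counted above as receptors, are in this list too and among the genes that rose in each genotype. Of all probe sets 4.32% rose in knockouts and 4.85% in controls, with a median of -0.01 in each. Serpina3n, an acute phase protease inhibitor, rose by 2.04 ± 0.27 in knockouts and 2.29 ± 0.27 in controls (adjusted p = 0.000726 and 0.000342). Cebpd, a transcription factor of early fat cell formation, rose by 1.53 ± 0.24 and 0.96 ± 0.24 (adjusted p = 0.00192 and 0.0224, the second lost under 7 of 22 alternatives). Fos rose by 2.52 ± 0.40 and 2.21 ± 0.40 (adjusted p = 0.00202 and 0.00379), and the metallothionein Mt2 by 0.62 ± 0.13 and 1.00 ± 0.13 (adjusted p = 0.00893 and 0.000509). Saa3, a serum amyloid, rose in knockouts by 1.22 ± 0.18 (adjusted p = 0.0013) and differed by 0.45 ± 0.18 in controls (adjusted p = 0.148).

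Of 10 STAT5 target genes, 1 rose in knockouts and 2 in controls, and 0 fell in each, with medians of 0.13 and 0.43. Igf1, the main growth factor induced by growth hormone, differed by -0.99 ± 0.36 in knockouts (adjusted p = 0.119) and -0.42 ± 0.36 in controls (adjusted p = 0.566). The kinase gene Pim2 rose with cold in knockouts by 0.88 ± 0.19 (adjusted p = 0.0107), and was higher in the arrays labelled knockout than in controls at 4 °C (1.25 ± 0.19, adjusted p = 0.00123). Pim1, in both the STAT3 and STAT5 lists, was lower there (-1.27 ± 0.24, adjusted p = 0.00684), but its other probe set differed by -0.33 ± 0.14 (adjusted p = 0.239). The survival gene Bcl2l1 rose in controls by 0.58 ± 0.16 (adjusted p = 0.0341) and differed by 0.46 ± 0.16 in knockouts (adjusted p = 0.101). Pdk4, which spares glucose, rose in controls by 0.46 ± 0.12 (adjusted p = 0.0281) and differed by 0.09 ± 0.12 in knockouts (adjusted p = 0.79). The calls of Bcl2l1 and Pdk4 were lost under 8 and 6 of 22 alternatives.

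Of 21 interferon targets, 6 fell with cold in knockouts and 1 in controls, and 0 rose in each, with medians of -0.75 and 0.08. Of all probe sets 4.7% fell in knockouts and 6.23% in controls. Irf1, an interferon-induced transcription factor, fell in knockouts by 1.25 (SE 0.15, adjusted p = 0.00036) and differed by -0.41 ± 0.15 in controls (adjusted p = 0.0992). Tap1, the antigen peptide transporter, fell by 1.29 in knockouts (SE 0.18, adjusted p = 0.000861) and by 0.65 in controls (SE 0.18, adjusted p = 0.0326, lost under 7 of 22 alternatives). Gbp3, a guanylate-binding protein, fell in knockouts by 1.19 (SE 0.19, adjusted p = 0.00185). The calls of Irf7 (-1.01 ± 0.28, adjusted p = 0.0409) and Ifih1 (-0.72 ± 0.19, adjusted p = 0.0355) in knockouts were lost under 12 and 7 of 22 alternatives. At room temperature 3 of 21 rose in knockouts over controls, against 1.29% of all probe sets. Of the 21, 17 had an unadjusted p under 0.05 by limma, against 13% of all, and the list median was 0.88. The 3 that rose were Usp18, Gbp3 and Tap1. Their calls were lost under 6, 9 and 10 of 22 alternatives. At 4 °C 0 of 21 were called for genotype by limma, with 3 at an unadjusted p under 0.05, against 5.8% and 16.9% of all. The interaction was called for 0 of 21, against 0.306% of all, and 11 had an unadjusted p under 0.05, against 9.77% of all. The 2 genotypes were thus not shown to differ in this response.

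For genotype at room temperature 0 of 6 STATs, 0 of 24 receptors and 0 of 21 ligands passed the limma test. In these lists 1, 6 and 0 had an unadjusted p under 0.05. Of all probe sets 1.72% passed and 13% had such a p. Of 19 STAT3 target and acute phase genes, 2 were higher in knockouts and 0 lower. At 4 °C 1 STAT and 1 receptor were higher in the arrays labelled knockout, 1 of each was lower, and 0 ligands were called. Of the 19 genes, 3 were higher and 1 lower there, with 9 at an unadjusted p under 0.05. Of all probe sets 3.61% were higher and 2.19% lower there, and 16.9% had an unadjusted p under 0.05. Lcn2, a lipocalin induced by STAT3 among others, was higher in knockouts by 2.25 ± 0.36 at room temperature and in the arrays labelled knockout by 2.28 ± 0.36 at 4 °C (adjusted p = 0.00614 and 0.00203). Mt2 was higher in knockouts at room temperature by 0.76 (adjusted p = 0.00769), a call lost with the array of conflicting label moved. Saa3 was higher by 1.09 ± 0.18 (adjusted p = 0.00282) and Osmr by 0.77 ± 0.18 (adjusted p = 0.0275) in the arrays labelled knockout at 4 °C, the call of Osmr being lost under 8 of 22 alternatives. Stat6 was lower there (-0.66 ± 0.13, adjusted p = 0.00877).

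Other brakes and the insulin pathway completed the set. Ptpn2, a phosphatase of JAKs and STATs, rose with cold by 0.53 ± 0.12 in knockouts and 0.72 ± 0.12 in controls (adjusted p = 0.0158 and 0.0026). The call in knockouts was lost under 4 of 22 alternatives. Of 11 inhibitors outside the SOCS family, 1 rose and 1 fell in knockouts and 1 rose and 0 fell in controls, with medians of -0.32 and -0.05. Pias4 was the one that fell in knockouts (-0.59 ± 0.16, adjusted p = 0.0381, lost under 10 of 22 alternatives). Of 9 insulin and IGF signalling genes, 2 rose and 1 fell in knockouts, against 1 up and 0 down in controls, with medians of -0.04 and 0.24. Irs2, an insulin receptor substrate, rose by 1.58 ± 0.34 in knockouts and 1.78 ± 0.34 in controls (adjusted p = 0.0107 and 0.00459). Grb10, an adaptor that restrains the insulin receptor, rose in knockouts by 0.59 ± 0.14 (adjusted p = 0.0192, lost under 4 of 22 alternatives) and differed by 0.32 ± 0.14 in controls (adjusted p = 0.194). Irs1 differed by 0.35 ± 0.30 and 0.09 ± 0.30, and the insulin receptor Insr by 0.15 ± 0.13 and 0.38 ± 0.13 (adjusted p from 0.0822 to 0.92). Of 5 measured partners of the SOCS box ubiquitin ligase, 1 was called in 1 comparison. This was Cul5, the cullin of that ligase, which rose in controls by 0.50 ± 0.14 (adjusted p = 0.0367, lost under 9 of 22 alternatives), and its other probe set differed by -0.06 ± 0.18 (adjusted p = 0.901).

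The genes whose 12 values were most like those of the 3 responsive members were found by Pearson correlation over the arrays, as a description that rests largely on the temperature groups. For Socs2 they were the DNA repair gene Ercc1 (r = 0.987), the p53 inhibitor gene Ppp1r13l (0.985), Mall (0.982), Gm5797 (0.980) and Tinagl1 (0.980). Within groups these 5 correlated with Socs2 at 0.82 to 0.91. For Socs3 they were Gpr171 (0.968), Hdc of histamine synthesis (0.965), the catenin gene Ctnna1 (0.959), the transcription initiation factor gene Gtf2f2 (0.949) and the thrombospondin gene Thbs1 (0.949), at 0.54 to 0.77 within groups. For Cish they were 2510002D24Rik (0.935), Aplf (0.932), Nemp1 (0.924), Sp110 (0.915) and the lysosomal phosphatase gene Acp2 (0.914), at 0.36 to 0.83 within groups. All 5 genes like Cish fell in knockouts with cold, and of them only Nemp1 was called in controls (-0.45, adjusted p = 0.0385). All these genes were picked on the same 12 values, so their correlations within groups are partly set by the choice and are no separate evidence.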

How the data were processed

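The deposited table holds log2 expression values of 41345 probe sets on 12 whole-transcript arrays, made by the authors with RMA, per the submitters' processing notes. No source used here names a version. RMA corrects background, quantile-normalizes arrays and summarises probes on the log2 scale, and it compresses differences near background. Raw scanner values were not used here, so background correction and normalization were not rechecked from them. Precision is limited by the number of arrays, 3 per group. No 2 arrays held identical values.

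Groups came from the sample titles. The 4 group means were estimated for the 23521 probe sets with 1 symbol in limma 3.58.1 (R 4.3.3, lmFit, contrasts.fit, eBayes; 8 residual and 4.45 prior degrees of freedom), checked on simulated data, with Benjamini-Hochberg adjustment over all of them. The labels do not say how mice were paired or caged, and a p-value here covers array-to-array spread only. The members and lists were chosen with earlier results of these data known. All members were named, at most 6 called genes per list by smallest adjusted p, 12 further pathway genes whatever their result, and the 5 genes most correlated with each of the 3 members with the smallest adjusted p. Listed genes without a single-symbol probe set were not analysed here. Alternatives were each array left out, the array with the conflicting label moved, only the compared arrays, a replicate block, a muscle covariate, all probe sets, a brightness filter, trended and robust eBayes, array weights and 2 renormalizations. For genes outside the family, losses under fewer than 6 alternatives are mostly not given. A call printed without a loss need not have held under all.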

Additional observations from a re-analysis of the deposited data

Results flagged for a closer look

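Sh2b2, an adaptor of the insulin receptor and of JAK2, was the one named gene whose cold response differed between genotypes by the test of that difference. It read 6.80, 6.65 and 7.10 in the arrays labelled knockout at 4 °C, against 8.33, 7.85 and 8.13 in knockouts at room temperature. In controls it read 8.25, 7.60 and 7.95 at 4 °C, against 7.79, 7.44 and 7.86 at room temperature. Sh2b2 fell by 1.25 in knockouts (SE 0.19, adjusted p = 0.00141) and differed by 0.24 ± 0.19 in controls (adjusted p = 0.527). The difference between these responses was -1.49 ± 0.27 (adjusted p = 0.0391), a call lost under 14 of 21 alternatives with an adjusted p up to 0.124. At 4 °C the gene was lower in the arrays labelled knockout (-1.08 ± 0.19, adjusted p = 0.00384), a call held under all 22 alternatives. The cause was not tested.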

How the results depend on the processing

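Socs2, Socs3 and Cish kept their cold calls in knockouts under all 22 alternatives run on the chosen probe sets, but on its other probe set Socs3 was not called in knockouts (0.48, adjusted p = 0.195) or in controls (0.18, adjusted p = 0.682). Moving control replicate 3 at room temperature, whose labels conflict, to the cold controls left 0 probe sets and 0 members called by limma for cold in controls (Socs2 3.17, adjusted p = 0.153; Socs3 0.78, adjusted p = 0.148; Cish -0.34, adjusted p = 0.818). It also left 177 of 404 probe sets for genotype at room temperature, 1044 of 2123 for cold in knockouts and 17 of 72 for the difference between cold responses, and turned Socs2 to 0.66 for genotype at 4 °C and 0.31 for that difference. Genotype at room temperature gave 245 calls with only the arrays compared and 191 with the muscle covariate. The difference between cold responses gave 47 calls with the replicate block, 39 with the muscle covariate and 22 over all probe sets. With the replicate block 1 member, Socs3, was called for genotype at 4 °C. Deviations of same-numbered arrays correlated at -0.18 to 0.16, and 2 of 12 pairs exceeded 0.1. The labels do not say whether these arrays share more than a number, and such correlations cannot decide it. Uncalled values changed sign for Socs4 at room temperature (-0.030, muscle covariate), for Socs6 and Socs7 with cold in knockouts (0.0041 and 0.0076, quantile normalization repeated), and with the other probe set for Cish at 4 °C (0.13) and Socs2 at room temperature (-0.22). Leaving out 1 array at a time gave 255 to 458 calls for genotype at room temperature, 842 to 1345 at 4 °C, 1276 to 2300 for cold in knockouts, 1608 to 2875 in controls and 21 to 123 for the difference. Members called were 0 to 0, 0 to 0, 3 to 3, 2 to 4 and 0 to 0 in that order. Without control replicate 3 at 4 °C, Socs4 (0.59, adjusted p = 0.0408) and Socs5 (0.48, adjusted p = 0.0294) were called for cold in controls. Under these omissions the uncalled genotype differences ranged from -0.21 to 0.61 for Socs2 and -0.037 to 0.216 for Socs7 at room temperature, and -0.76 to 0.028 for Socs2 at 4 °C. The causes were not tested. Socs1 gave no value under the brightness filter, and readings near the array medians limit Socs1 and the dimmer Socs3 probe set.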
